A study of Mus musculus with 8 samples.

Results

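Genes of activated microglia and of border macrophages were followed in mouse cortex after inhibition of the microRNA miR-218-5p. The 10 genes were chosen by name from the 14884 genes of the deposited count table, and all 10 had counts in all 8 libraries. They comprise 8 genes raised or expressed in phagocytic microglia (Cybb, Cd63, Gpnmb, Lpl, Cd68, Cd9, Ctsd and Lyz2) and 2 receptors of macrophages at the brain's borders (Cd163 and Mrc1). Polyadenylated RNA was sequenced from the injected primary somatosensory cortex of 4 wild-type male mice, 3 months old, 10 days after stereotactic injection. In each mouse 1 hemisphere received a locked nucleic acid inhibitor of miR-218-5p (LNA218), and the opposite hemisphere a scrambled inhibitor (NC). LNA218 was on the right in mice 33, 34 and 36 and on the left in mouse 35. Both groups were therefore injected tissue, and neither shows the level of these genes in uninjected cortex. The libraries held between 17409882 and 25154657 estimated counts (median 20586008). No microRNA level, and so no measure of the inhibition itself, was available from this polyadenylated RNA.

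Microglia are the resident macrophages of brain tissue. When they take up debris they enlarge their lysosomes, produce reactive oxygen with the phagocyte oxidase and load or release lipid, and genes for these functions are used as markers of activation. Border macrophages live in the meninges, the choroid plexus and the spaces around vessels, and carry scavenger receptors that parenchymal microglia lack or hold at low levels. Several of the 10 genes are not restricted to these cells: Ctsd, Cd63 and Cd9 are made by most cells of the brain, Cd9 is high in oligodendrocytes, and Lpl is also made by neurons and other glia. In bulk tissue, fewer cells of a type and less RNA per cell cannot be told apart.

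The mature inhibitor target is shown because its seed, bases 2 to 8 in capitals, sets which transcripts it can pair with.
miR-218-5p: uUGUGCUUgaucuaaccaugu
RefSeq (GRCm38.p6) places this sequence at the Mir218-1 locus, chr5:48223966-48223986 on the plus strand, and at the Mir218-2 locus, chr11:35616840-35616860 on the plus strand. The 3′ UTRs of the 10 genes, taken from GENCODE M21 transcripts, were searched on the transcript strand for AAGCACA, which pairs with the whole seed, and for AGCACAA, which pairs with bases 2 to 7 opposite a terminal A. Where both overlap, AAGCACAA, the pair forms an 8mer. Cybb alone among the 10 held such a match, 1 of each kind and no 8mer, in a 3′ UTR of 2965 bases. They are printed with flanking bases in lower case and the match in capitals.
Cybb, match from base 583 of the 3′ UTR: ccagttttatcAGCACAAcagtttaa
Cybb, match from base 2915 of the 3′ UTR: tcacggatgtaAAGCACAtcaccgaa
AAGCACA was in the 3′ UTR of 14.2% of 13902 tested genes, and in 10.0% of the members. The 3′ UTRs of Cd63 (82 bases), Cd68 (158 bases) and Cd9 (395 bases) are short. A match is a description of the letters and not evidence of pairing.

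The comparison asks whether these genes differ between the inhibitor and the control hemisphere of the same animal. No member passed an adjusted p of 0.05 (edgeR quasi-likelihood test with the animal as a block), beside 0 of 14506 tested genes (0%). At an unadjusted p under 0.05 there were 2 members, Cybb and Cd63, beside 1.70% of all tested genes. DESeq2 called 13 genes (0.0896%) and edgeR's likelihood-ratio test 11 (0.0758%), with 0 members among either. Of the 10 members 8 were fitted as higher in LNA218 and 2 as lower, with a median log2 fold change of 0.33, beside -0.0096 over all tested genes. Of all 14506 tested genes 6840 were fitted as higher and 7666 as lower, the background for this and the later list counts. By animal, in the order of mice 33 to 36, the median log2 difference of the members was 0.49, 0.38, 0.11 and 0.11. Leaving out mouse 34 brought the median of the fitted values to 0.18, over the 9 members then tested. Cybb, Cd63, Gpnmb, Ctsd and Cd163 were higher in LNA218 in 4 of 4 animals, a pattern held by 4.58% of all tested genes, and 0 members were lower in 4 of 4, beside 4.05%. For no member did the LNA218 libraries all lie above the NC libraries, which 0.731% of tested genes did, or all below them, which 0.648% did. The members were selected with earlier results of these libraries known, so these counts describe them and are not independent evidence.

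**Figure D1:**
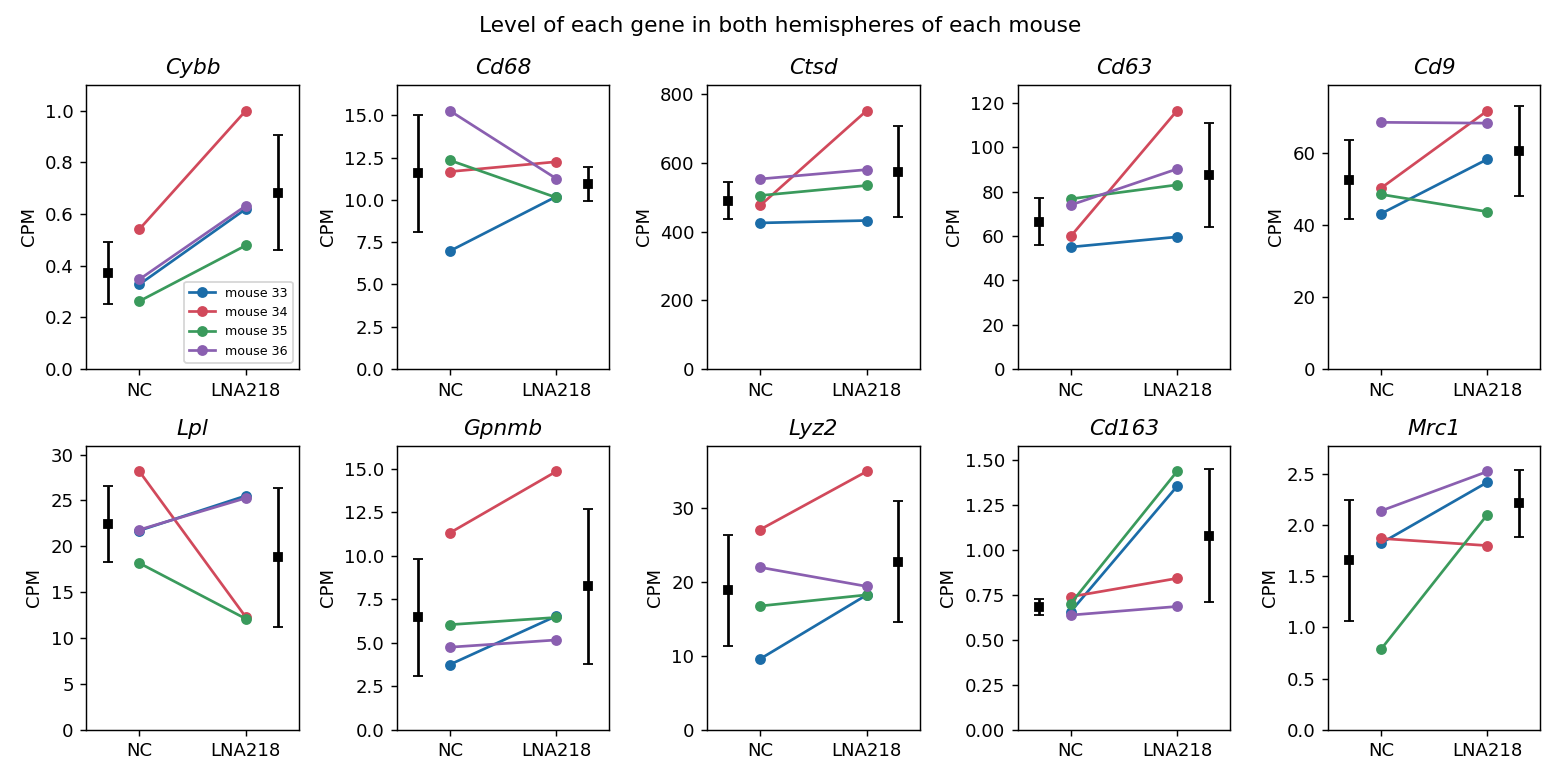
Level of each of the 10 genes in CPM, the count scaled to library size (linear axes from 0), in the NC and LNA218 hemisphere, with a line joining the hemispheres of each mouse; black squares and bars are the group mean and SD of 4 libraries. All 4 lines of Cybb, Cd63, Gpnmb, Ctsd and Cd163 go up from NC to LNA218, while those of Lpl, Cd68, Cd9, Lyz2 and Mrc1 run in both directions.

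Cybb encodes the catalytic subunit of the phagocyte NADPH oxidase, which releases superoxide. Its level is given in CPM, counts scaled to the library's TMM-adjusted size. In LNA218 it stood at 0.619, 1.0, 0.478 and 0.632 CPM in mice 33 to 36, and in NC at 0.328, 0.542, 0.263 and 0.347 CPM. Every mouse had the higher level on the inhibitor side, and the groups overlapped because the NC library of mouse 34, at 0.542, lay above the LNA218 library of mouse 35. Mouse 34 was the highest on either side. The within-animal folds were 1.89, 1.85, 1.82 and 1.82, a mean log2 difference of 0.88 ± 0.026 (SD, n = 4). Its fitted log2 fold change was 0.87 ± 0.34 (SE), with an unadjusted p of 0.034 and an adjusted p of 0.999 (edgeR quasi-likelihood). These levels rest on few reads, 11, 25, 10 and 12 counts in LNA218 and 7, 11, 6 and 6 in NC. Counting error alone gave 95% Poisson intervals of 5.49 to 19.7 counts for the LNA218 library of mouse 33 and 2.81 to 14.4 for its NC library, so the closeness of the 4 folds is finer than such counts can resolve. Over all 4 animals the sums were 58 and 30 counts. An exact sign-flip test gave p = 0.125, the smallest value 4 animals allow. Without mouse 34 Cybb no longer met the low-count filter and was not tested.

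Of 7 measured oxidase genes 6 were fitted as higher, with a median of 0.12 on the log2 scale and 0 passing. Cyba, the membrane partner of Cybb, had 11.9 ± 4.17 CPM in LNA218 against 9.59 ± 2.05 in NC (SD, n = 4), and a log2 fold change of 0.27 ± 0.18 (SE). Ncf4, a cytosolic regulator, had 1.17 ± 0.613 and 0.872 ± 0.308 CPM (SD, n = 4). Rac2, the GTPase of the complex in blood cells, had 3.76 ± 0.722 and 3.32 ± 0.859 CPM (SD, n = 4). Each of these 3 genes was higher in 3 of 4 animals, with unadjusted p from 0.18 for Cyba to 0.32 for Rac2 (edgeR quasi-likelihood). In the paired fit the log2 fold change was 0.39 ± 0.30 for Ncf4 and 0.19 ± 0.18 for Rac2 (SE).

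Cd68 encodes a heavily glycosylated protein of late endosomes and lysosomes, and is the usual histological marker of phagocytic microglia. It had 10.2, 12.2, 10.1 and 11.3 CPM in LNA218 and 6.97, 11.7, 12.3 and 15.3 CPM in NC, in mice 33 to 36. It was higher on the inhibitor side in mice 33 and 34 and lower in mice 35 and 36. The LNA218 libraries spanned a narrower range than the NC libraries and lay inside it. Fitted, the log2 fold change was -0.034 ± 0.18 (SE), and it turned to 0.053 without mouse 35 and 0.10 without mouse 36.

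Ctsd encodes cathepsin D, an aspartic protease of the lysosome, and had the highest level of the 10. It stood at 432, 752, 534 and 580 CPM in LNA218 and at 425, 476, 505 and 553 CPM in NC, in mice 33 to 36. Only mouse 34 had a wide gap, with a fold of 1.58 against 1.02, 1.06 and 1.05 in mice 33, 35 and 36. In the fit the log2 fold change was 0.21 ± 0.13 (SE, adjusted p = 0.999, edgeR quasi-likelihood), and 0.06 without mouse 34.

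Cd63, a tetraspanin of late endosomes, lysosomes and secreted vesicles, followed Ctsd closely. Its LNA218 libraries had 59.6, 116.5, 83.0 and 90.2 CPM and its NC libraries 55.00, 59.8, 76.7 and 73.9 CPM, in mice 33 to 36. The gap was again widest in mouse 34, at 1.95-fold, beside 1.08, 1.08 and 1.22 in mice 33, 35 and 36. The fitted log2 fold change was 0.37 ± 0.15 (SE), with an unadjusted p of 0.044 and an adjusted p of 0.999 (edgeR quasi-likelihood), and 0.18 without mouse 34. Over the 8 libraries log2 CPM of Cd63 and Ctsd had a Pearson r of 0.961, the highest of the 45 pairs of members, whose median was 0.299 with 32 pairs above 0. The libraries share animals and injections, so this r is a description.

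The promoter of Ctsd is shown because it holds 2 copies of CACGTG (in capitals), the core of the E-box element bound by the lysosomal regulator TFEB and by other factors.
Ctsd promoter: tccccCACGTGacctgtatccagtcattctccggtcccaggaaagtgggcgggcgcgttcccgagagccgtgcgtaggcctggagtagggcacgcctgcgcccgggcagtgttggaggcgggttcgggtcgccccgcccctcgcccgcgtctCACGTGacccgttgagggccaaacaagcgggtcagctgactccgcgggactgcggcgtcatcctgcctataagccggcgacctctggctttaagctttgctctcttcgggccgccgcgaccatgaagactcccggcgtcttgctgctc
This is chr7:142387778-142388077 on the minus strand (RefSeq, GRCm38.p6). CACGTG, which reads the same on both strands, was in 7.15% of 32851 promoters of this length, and in 1 of the 9 members with a promoter in the table. The Cd63 promoter held none in this window. Tfeb itself had 18.0 ± 4.82 CPM in LNA218 against 14.2 ± 1.86 in NC (SD, n = 4), and was higher in 3 of 4 animals. Its fitted log2 fold change was 0.31 ± 0.20 (SE), with an unadjusted p of 0.16 and an adjusted p of 0.999 (edgeR quasi-likelihood). A link between Tfeb and the level of Ctsd or other lysosomal genes was not tested.

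Most other lysosomal genes were fitted as higher, without passing. Of 24 measured genes of the lysosome list 21 were fitted as higher and 3 as lower, with a median log2 fold change of 0.099 and 0 passing. Psap, the precursor of the saposins that help to break down sphingolipids, had 2097 ± 299 CPM in LNA218 against 1829 ± 107 in NC (SD, n = 4). Ctsf, cathepsin F, had 74.3 ± 9.31 and 65.6 ± 7.38 CPM (SD, n = 4). The median log2 difference of the list was -0.0056, 0.30, 0.084 and 0.027 in mice 33 to 36, so mouse 34 again lay furthest from 0.

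Cd9, a tetraspanin of the plasma membrane, did not follow Cd63 in every animal. It had 58.2, 71.6, 43.6 and 68.2 CPM in LNA218 and 43.1, 50.2, 48.4 and 68.4 CPM in NC, in mice 33 to 36. It was higher on the inhibitor side in mice 33 and 34, lower in mouse 35, and nearly level in mouse 36. Its fitted log2 fold change was 0.20 ± 0.14 (SE), and it was 0.095 without mouse 34, 0.12 without mouse 33 and 0.31 without mouse 35. Of 15 tested other tetraspanins 12 were fitted as higher and 3 as lower, with a median of 0.073 and 0 passing. Tspan4 had 17.4 ± 2.34 CPM in LNA218 against 14.8 ± 2.13 in NC, and Tspan14 48.5 ± 2.56 and 44.2 ± 1.53 (SD, n = 4), both higher in 4 of 4 animals. Cd53, a tetraspanin of leukocytes and microglia, was lower in 4 of 4 animals, at 5.36 ± 0.538 and 6.28 ± 1.24 CPM (SD, n = 4), and none of the 3 passed.

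Lpl encodes lipoprotein lipase, which frees fatty acids from lipoproteins. It stood at 25.5, 12.3, 12.1 and 25.3 CPM in LNA218 and at 21.7, 28.2, 18.2 and 21.8 CPM in NC, in mice 33 to 36. The LNA218 libraries formed a high and a low pair, with mice 33 and 36 above every NC library but that of mouse 34, and mice 34 and 35 below every NC library. The folds were 1.17, 0.436, 0.666 and 1.16, and the mean log2 difference of -0.33 ± 0.69 (SD, n = 4) was smaller than its spread. The fitted value of -0.33 ± 0.24 (SE) became -0.03 without mouse 34, -0.52 without mouse 33 and -0.51 without mouse 36. Over the 8 libraries Lpl and Cd63 had a Pearson r of -0.674, the lowest of the 45 pairs.

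Of 17 measured genes of lipid handling 11 were fitted as higher and 6 as lower, with a median of 0.023 and 0 passing. Npc2, which carries cholesterol out of the lysosome, had 82.2 ± 14.6 CPM in LNA218 against 72.9 ± 8.24 in NC (SD, n = 4). Plin2, the coat protein of lipid droplets, had 6.65 ± 0.529 and 5.99 ± 0.241 CPM and was higher in 4 of 4 animals. Lipa, the lysosomal acid lipase, had 20.4 ± 1.52 and 19.3 ± 2.55 CPM (SD, n = 4).

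Gpnmb, a transmembrane glycoprotein of lipid-laden phagocytes, varied more between animals than between hemispheres. It had 6.53, 14.9, 6.46 and 5.16 CPM in LNA218 and 3.75, 11.3, 6.04 and 4.74 CPM in NC, in mice 33 to 36. Mouse 34 stood above the other 3 animals in both hemispheres, and in each animal the inhibitor side was the higher. The folds were 1.74, 1.31, 1.07 and 1.09, and the SD of log2 CPM between NC libraries was 0.69. Fitted, the log2 fold change was 0.35 ± 0.17 (SE, unadjusted p = 0.071, adjusted p = 0.999, edgeR quasi-likelihood), and 0.21 without mouse 33.

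Lyz2, the lysozyme of macrophages and microglia, showed the same animal as the highest. It had 18.2, 35.0, 18.3 and 19.4 CPM in LNA218 and 9.60, 27.1, 16.8 and 22.0 CPM in NC, in mice 33 to 36. The inhibitor side was higher in mice 33, 34 and 35 and lower in mouse 36. In the fit the log2 fold change was 0.30 ± 0.18 (SE), and it was 0.11 without mouse 33, whose NC library was the lowest of all 8, and 0.47 without mouse 36. Gpnmb and Lyz2 had a Pearson r of 0.857 over the 8 libraries. Lyz2 has a close paralog, Lyz1, which was not analysed here, so its counts are uncertain where reads fit both.

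**Figure D2:**
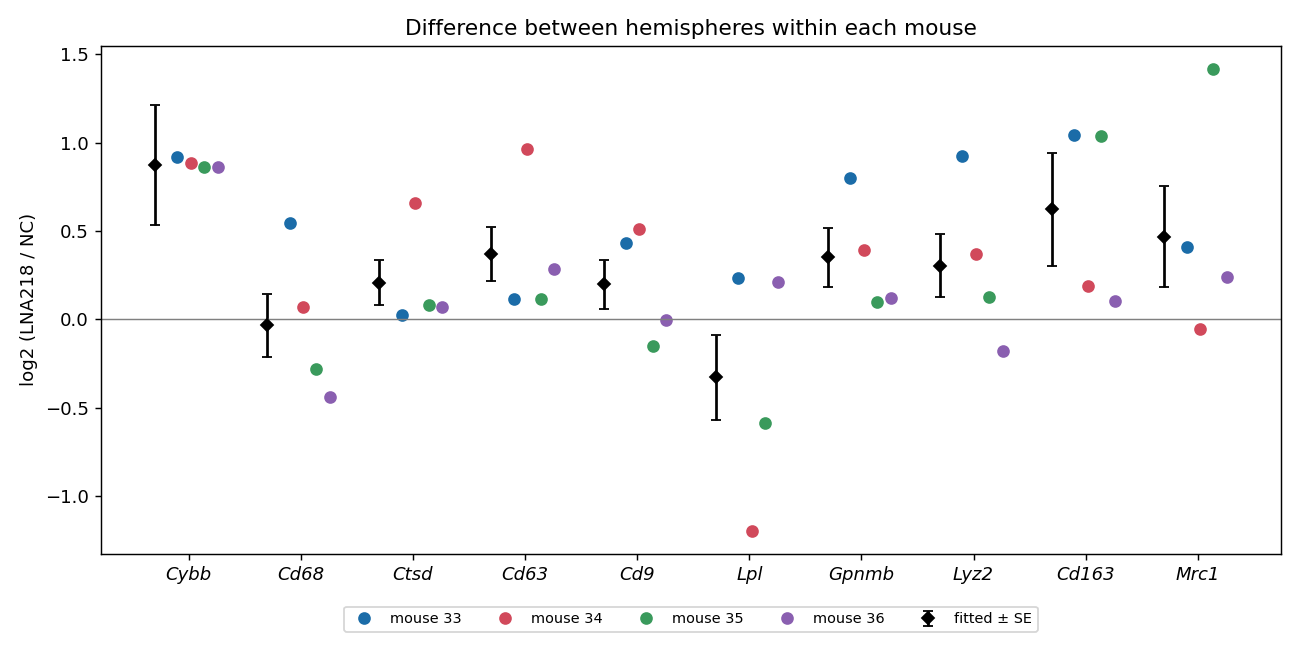
Log2 difference between the LNA218 and the NC hemisphere of each mouse (coloured points) for the 10 genes, with the fitted log2 fold change and its SE (black). The 4 points of Cybb lie within 0.86 to 0.92, whereas those of Lpl run from -1.20 to 0.23 and those of Mrc1 from -0.055 to 1.42.

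Cd163 is the haemoglobin-haptoglobin scavenger receptor of border macrophages. It stood at 1.35, 0.840, 1.43 and 0.684 CPM in LNA218 and at 0.655, 0.738, 0.700 and 0.636 CPM in NC, in mice 33 to 36. The NC libraries were close together, and mice 33 and 35 stood above them on the inhibitor side while mice 34 and 36 hardly did. The folds were 2.06, 1.14, 2.05 and 1.08, on 24, 21, 30 and 13 counts in LNA218 against 14, 15, 16 and 11 in NC. The fitted log2 fold change was 0.62 ± 0.32 (SE), with an unadjusted p of 0.089 and an adjusted p of 0.999 (edgeR quasi-likelihood).

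Mrc1 is the mannose receptor, the other surface marker of border macrophages. It had 2.42, 1.80, 2.10 and 2.53 CPM in LNA218 and 1.83, 1.87, 0.788 and 2.14 CPM in NC, in mice 33 to 36. Only the NC library of mouse 35, with 18 counts, was far from the rest, and that animal had a fold of 2.67 against 1.33, 0.963 and 1.18 in the other 3. Its fitted log2 fold change of 0.47 ± 0.28 (SE) became 0.20 without mouse 35.

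Further markers of border macrophages were divided. Of the 16 listed, 14 were in the table and 10 passed the low-count filter, of which 5 were fitted as higher and 5 as lower, with a median of 0.0365 and 0 passing. Cbr2, a carbonyl reductase used as a marker of these cells, had 1.16 ± 0.285 CPM in LNA218 against 0.525 ± 0.268 in NC, a log2 fold change of 1.20 ± 0.35 (SE), higher in 4 of 4 animals. Dab2, an endocytic adaptor, had 8.01 ± 0.935 and 5.71 ± 1.57 CPM (SD, n = 4), and a log2 fold change of 0.52 ± 0.20 (SE), also higher in 4 of 4. F13a1, a coagulation factor subunit made by macrophages, had 1.59 ± 0.329 and 1.17 ± 0.454 CPM (SD, n = 4). Cbr2 and Dab2 had unadjusted p of 0.0093 and 0.032, and their adjusted p was 0.999 (edgeR quasi-likelihood). The summed level of the list was 97.4 to 110 CPM in LNA218 and 91.3 to 110 in NC, and Folr2 was at 0 in at least 1 library.

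The remaining scavenger receptors were also divided. Of the 15 listed, 10 had counts and 9 were tested, with 5 fitted as higher and 4 as lower, with a median of 0.055 and 0 passing. Stab2, a hyaluronan receptor, was lower in 4 of 4 animals, at 0.377 ± 0.137 CPM in LNA218 against 0.891 ± 0.276 in NC (SD, n = 4), with a log2 fold change of -1.23 ± 0.33 (SE), an unadjusted p of 0.0061 and an adjusted p of 0.999 (edgeR quasi-likelihood). Mrc2, a collagen receptor related to Mrc1, had 10.0 ± 3.18 and 7.88 ± 0.586 CPM, and Ly75, another relative, 1.44 ± 0.426 and 1.10 ± 0.120 CPM (SD, n = 4).

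Other genes of activated microglia are given as background to the members. Of 25 measured genes 18 were fitted as higher and 7 as lower, with a median of 0.10 and 0 passing. Cd74, the class II invariant chain, had 9.07 ± 4.30 CPM in LNA218 against 5.33 ± 1.57 in NC, and Lgals3, galectin-3, had 1.98 ± 1.76 and 1.02 ± 0.377 (SD, n = 4). Both were higher in 3 of 4 animals. Timp2, an inhibitor of matrix proteases, had 272 ± 15.9 and 248 ± 12.3 CPM (SD, n = 4) and was higher in 4 of 4. The list sum was led by Apoe, a lipid carrier that astrocytes also make, which averaged 2314 CPM in LNA218 against 1995 in NC.

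**Figure D3:**
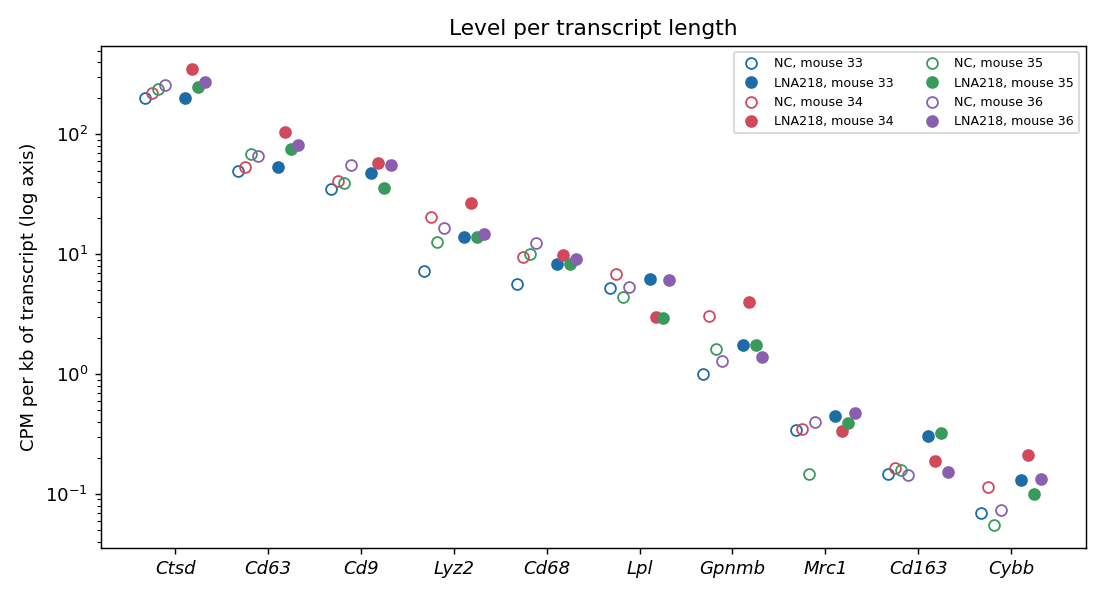
Level of each gene in CPM per kb of its GENCODE M21 transcript (log axis), in NC (open circles) and LNA218 (filled circles), coloured by mouse and ordered by the NC mean. Ctsd is the highest and Cybb the lowest, and the 2 macrophage receptors sit with Cybb below all other genes.

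Per length of transcript, the 10 genes in NC spanned from 230 ± 25.2 CPM per kb for Ctsd to 0.0778 ± 0.0253 for Cybb (SD, n = 4). Cd63 followed Ctsd at 59.8 ± 9.55 CPM per kb and Cd9 at 42.8 ± 8.97, and these 2 neighbours overlapped in range although Cd63 was above Cd9 in 4 of 4 NC libraries. Lyz2 at 14.3 ± 5.69, Cd68 at 9.40 ± 2.79 and Lpl at 5.46 ± 1.01 CPM per kb formed a run of overlapping neighbours. Gpnmb at 1.75 ± 0.911 CPM per kb lay apart from Lpl and from Mrc1 at 0.308 ± 0.111. Mrc1 and Cd163 (0.154 ± 0.0103) overlapped, with Mrc1 above in 3 of 4 NC libraries.

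Markers of other cells were measured beside the members. The 16 homeostatic microglia markers, led by Csf1r, were above 0 in every library and summed to 572 to 744 CPM in LNA218 and 599 to 765 in NC, with 9 fitted as higher and 7 as lower and a median of 0.031. The 9 markers of cortical neurons, led by Slc17a7, were fitted as higher for 3 and lower for 6 and summed to 2437 to 2844 CPM in LNA218 and 2627 to 2874 in NC. Of 12 leukocyte markers 1, S100a9, was in the table used, with mean levels of 0.435 CPM in LNA218 against 0.330 in NC. S100a9 did not meet the low-count filter and was not tested. The 5 red cell genes were all fitted as lower, and summed to 29.3 to 143 CPM in LNA218 and 43.1 to 161 in NC. Oligodendrocyte markers, led by Mbp, were higher for 6 and lower for 3 of 9, and their sum in LNA218 was 0.856, 1.28, 0.851 and 1.08 times that in NC in mice 33 to 36, beside Cd9 folds of 1.35, 1.43, 0.901 and 0.997 in the same order. Astrocyte markers, led by Slc1a2, were higher for 4 and lower for 5 of 9, and endothelial markers, led by Flt1, higher for 5 and lower for 3 of 8. None of the tested genes of these lists passed.

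Markers of the choroid plexus and of the meninges were higher on the inhibitor side, with 0 passing the adjusted threshold and 9 of 10 and 10 of 12 at an unadjusted p under 0.05 (edgeR quasi-likelihood). All 10 tested choroid plexus markers, led by Ttr, were fitted as higher, and the 12 in the table summed to 204 to 3448 CPM in LNA218 and 201 to 299 in NC, with no marker at 0. The LNA218 sum was 1.42, 15.0, 1.02 and 7.94 times the NC sum in mice 33 to 36. Ttr averaged 1027 CPM in LNA218 and 29.7 in NC, so other markers make up most of the NC sum. The median log2 difference of the tested choroid plexus markers was 0.88, 4.80, 0.22 and 3.24 in the same order. The 12 meningeal fibroblast markers, led by Igf2, were all fitted as higher, and summed to 205 to 281 CPM in LNA218 and 130 to 189 in NC. Their sum was 1.57, 2.05, 1.61 and 1.16-fold in mice 33 to 36, and no marker was at 0. The median log2 difference of the meningeal markers was 0.79, 1.15, 0.78 and -0.013 in the same order. Over the 8 libraries the choroid plexus sum had a Pearson r of 0.762 with Cybb, 0.762 with Cd63, 0.770 with Cd9 and 0.784 with Ctsd, and between -0.200 and 0.518 with the other 6 members. The meningeal sum had one of 0.814 with Cd63, 0.721 with Ctsd, 0.617 with Cybb, 0.545 with Cd163 and -0.682 with Lpl. With the remaining members it lay between 0.293 and 0.503. The homeostatic microglia sum had one of 0.810 with Ctsd, 0.750 with Cd63, 0.674 with Cd68, 0.582 with Lyz2 and 0.55 with Cd9. It had 0.228 with Cybb, and the remaining members lay between -0.362 and 0.227. Other lists held values of similar size, such as 0.80 for the leukocyte marker S100a9 with Cd68 and -0.662 for cortical neurons with Cd9. These r values describe libraries that share animals. The part of choroid plexus or meningeal tissue in the members' values was not tested. With mice 34 and 36, which had the highest choroid plexus ratios, left out together, an alternative chosen after seeing the data, the fitted log2 fold change was lower for Cd63 (0.11 from 0.37), Ctsd (0.052 from 0.21) and Cd9 (0.14 from 0.20). It was higher for Cd163 (1.03 from 0.62), Mrc1 (0.86 from 0.47), Lyz2 (0.51 from 0.30) and Gpnmb (0.43 from 0.35). Cybb stood at 0.88 beside 0.87, Lpl at -0.16 beside -0.33, and Cd68 turned from -0.034 to 0.11. None of the 10 passed in that fit of 2 animals. With mouse 34 alone left out, Cd63, Ctsd and Cd9 fell to 0.18, 0.062 and 0.095. With mouse 36 alone left out, they rose instead, to 0.40, 0.25 and 0.27.

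**Figure D4:**
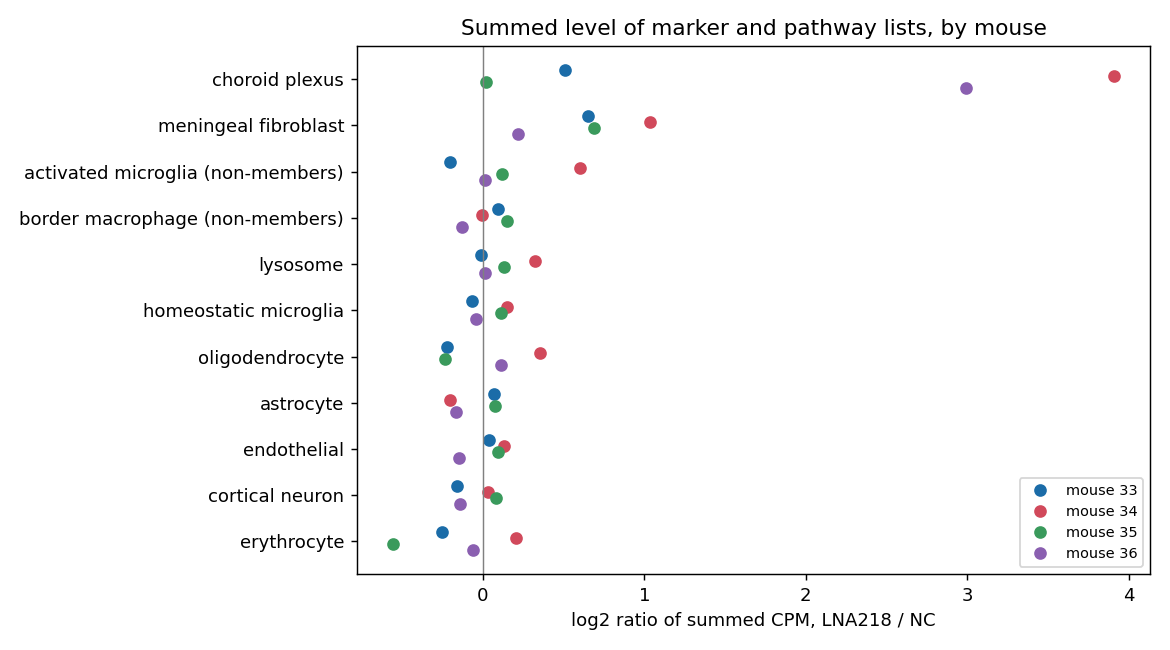
Log2 ratio of the summed CPM of each list between the LNA218 and NC hemisphere of each mouse. Choroid plexus markers run from 1.02-fold in mouse 35 to 15.0-fold in mouse 34, and the homeostatic microglia list stays within 0.955 to 1.11-fold.

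Library properties differed between the hemispheres as well. In mouse 34 within-animal differences correlated with transcript GC content at a Spearman rank value of 0.692 over 10294 genes, and in mouse 33 at -0.620, beside 0.233 in mouse 35 and -0.212 in mouse 36. The share of mitochondrially encoded counts in mouse 34 was 1.87% in LNA218 and 3.56% in NC. With a correction for GC content and length, the differences in mouse 34 were 0.32 for Ctsd, 0.69 for Cd63 and -0.74 for Lpl on the log2 scale, beside 0.66, 0.96 and -1.20 without it. Corrected values of Cybb were 0.73, 1.47, 0.93 and 0.82 in mice 33 to 36, and the same 5 genes as before were higher in 4 of 4 animals, joined by Mrc1, which in mouse 34 turned from -0.055 to 0.51. The share of all genes higher in 4 of 4 animals after the correction was not computed, so this count has no background beside it. Cd68 in mouse 34 turned from 0.07 to -0.34, which left it higher in 1 of 4 animals.

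The authors' deposited table of the same contrast, for which no source used here gives the model terms, called 0 of the 10 at an adjusted p of 0.05, beside 0.235% of its genes, and held 1 member, Cd63, at an unadjusted p under 0.05, beside 9.85%. In the authors' deposited table Cd63 had a log2 fold change of 0.18 with an unadjusted p of 0.011 and an adjusted p of 0.308. In the authors' deposited table Cd163 stood at 0.71 and Mrc1 at 0.40, near the paired fit, whereas Cybb stood at 0.10, Gpnmb at 0.016 and Ctsd at 0.0083. The paired fit gave 0.87, 0.35 and 0.21 for these last 3.

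Genes elsewhere in the table with the most similar profile were found by ranking 10453 genes with a mean log2 CPM above 3 against the mean of the members' standardised log2 CPM over the 8 libraries. The highest Pearson r values were those of Vim at 0.958, Pdpn at 0.935, Polr1b at 0.884, Irf9 at 0.879 and Nfkb1 at 0.876. Vim, an intermediate filament of reactive astrocytes and fibroblasts, had a log2 fold change of 0.26 ± 0.12 (SE), and Pdpn, a surface glycoprotein of reactive astrocytes and meningeal cells, 0.21 ± 0.13 (SE). The libraries share animals, so these r values are a description. They are the extremes of 10453 genes ranked over only 8 libraries. How high r runs by chance in such a ranking was not tested.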

How the data were processed

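The authors deposited estimated counts per gene for 8 libraries, a table of natural log values, and a table of their own comparison with log2 fold changes, a likelihood-ratio score and p-values, per the file headers. The submitters' processing notes list Salmon, edgeR and GRCm39 without saying what each was used for. The deposited natural log values equalled ln(CPM + 1) with TMM scaling to within 0.00303. No source used here gives the strand setting or the annotation.

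Estimated counts were rounded. The edgeR filter with a minimum count of 10 kept 14506 genes, all 10 members included, and removed 378. In R 4.3.3 the quasi-likelihood test of edgeR 4.0.16 compared LNA218 with NC. Dispersions were robust, scaling was by TMM, and the model held the animal as a block. P-values were adjusted by Benjamini-Hochberg over all tested genes, with a threshold of 0.05. Standard errors came from the F statistic. The block comes from the design text, where each animal is its own control; deviations of paired libraries correlated at 0.079, -0.627, 0.446 and 0.194 in mice 33 to 36. Libraries of a group differed by more than sampling noise (lowest median chi-square 1.78, against 0.455 from sampling). The test was run on simulated counts with 200 genes changed 4-fold, of which 99.5% were called, beside 15 false calls. That simulation held no animal effect and no smaller changes, so it does not bear on changes of the members' size. GENCODE M21 (GRCm38) supplied transcript length, GC content and 3′ UTRs by gene symbol, and no coordinates of the files' build were used.

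All members were named. Of each pathway list the 3 genes with the smallest p were named, and similar profiles were ranked by Pearson r. The members and lists were chosen with earlier results of these data known. Alternatives were other scalings, filters and tests (DESeq2 1.42.0, limma 3.58.1), no block, a hemisphere term, a GC and length correction, a threshold of 0.1 and each animal left out. Counting intervals cover counting error only.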

Additional observations from a re-analysis of the deposited data

Results flagged for a closer look

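In 52 groups of 4 libraries looked at, for members and for list sums, 4 held a library far from the other 3, where chance flags about 1 in 20. Lyz2 in the LNA218 library of mouse 34 stood at 35.0 CPM, above the other 3 LNA218 libraries, and its NC hemisphere was the highest of the NC libraries. Mrc1 in the NC library of mouse 35 stood at 0.788 CPM, below the other 3, on 18 counts. The oxidase genes summed to 330.0 CPM in the NC library of mouse 35, below the other NC libraries. Most of this list's sum is 1 gene, Rac1, which averaged 344 CPM in NC, beside list sums of 330.0 to 398 CPM. The flag therefore does not describe the other oxidase genes. The red cell genes summed to 29.3 CPM in the LNA218 library of mouse 35, and mouse 35 was also the lowest in NC, at 43.1 CPM.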

How the results depend on the processing

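No member passed under any alternative run, and 144 of 147 member values kept their direction and their side of the threshold. The adjusted p of the members ran from 0.840 to 1 over the alternatives. Cd68 ran from -0.21 to 0.10 with each animal left out, turning to 0.053 without mouse 35 and 0.10 without mouse 36, and was 0.11 without mice 34 and 36 together, the last chosen after seeing the data; the cause was not tested. The median log2 fold change of the members ran from 0.18 to 0.41 with each animal left out, was 0.32 with no replicate block and 0.28 with the replicate block and a GC and length correction. With a hemisphere term the fitted value was 0.08 for Cd9 and 0.80 for Mrc1, and the members' median 0.26. Only mouse 35 had LNA218 on the left, so a fit with this term leans on that animal. Its NC library held 18 counts of Mrc1, and Mrc1 was 0.20 without that mouse. The block changed no call: 0 genes and 0 members passed without it. Over all genes DESeq2 called 13, the likelihood-ratio test 11, and the quasi-likelihood test 13 without mice 34 and 36 together and 0 to 12 with each animal left out, the 12 without mouse 34. Cybb and Cd163 did not meet a filter of CPM 1 in 4 libraries, nor Cybb the main filter without mouse 34, so these have no value. Depth limits Cybb, Cd163 and Mrc1, whose lowest libraries held 6, 11 and 18 counts.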
